A study of Mus musculus with 69 samples.

Results

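The 10 genes described here encode proteins that hold back mTOR complex 1 (mTORC1), the kinase complex that drives cell growth: the sestrins Sesn1, Sesn2 and Sesn3, the stress-induced inhibitors Ddit4 and Ddit4l, the tuberous sclerosis complex subunits Tsc1 and Tsc2, the mTOR-binding inhibitor Deptor, and the β-subunits of AMP-activated protein kinase (AMPK), Prkab1 and Prkab2. They were chosen by symbol, and all 10 were among the 55367 symbols of the count table. Bulk RNA sequencing of 69 libraries covered 23 conditions with 3 replicates each. All cells were E14tg2A mouse embryonic stem (mES) cells, an established line, and 3 clones were used. WT–mCherry expresses H2B–mCherry from an EF1α promoter, WT–emiRFP expresses H2B–emiRFP670 from a CAG promoter, and p53KO–emiRFP is a daughter clone of WT–emiRFP with a homozygous frameshift in Trp53, which encodes the transcription factor p53. The knockout is thus represented by 1 clone. At 0 h each clone was sampled as mES cells kept in serum with LIF. From 48 h the cells came from mosaic gastruloids, aggregates of mES cells that form embryo-like cell types, seeded with 150 WT–mCherry and 150 WT–emiRFP cells (WT + WT) or with 150 WT–mCherry and 25 p53KO–emiRFP cells (WT + p53KO). A pulse of the Wnt agonist CHIR99021 was given between 48 h and 72 h, so that the 48 h libraries stand at its start, and the populations were separated by fluorescence-activated sorting at 48, 72, 96, 120 and 144 h. WT–mCherry cells were therefore sampled beside WT–emiRFP cells and beside p53KO–emiRFP cells.

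mTORC1 sits on the lysosome and is switched on by the small GTPase Rheb when amino acids and growth factors are plentiful. Sestrins block the amino acid branch by binding the GATOR2 complex, Ddit4 (REDD1) and Ddit4l (REDD2) act through the TSC complex, and TSC1 and TSC2 together form the GTPase-activating protein that turns Rheb off. AMPK senses low energy and phosphorylates TSC2 and the mTORC1 subunit Raptor, whereas DEPTOR binds mTOR directly. Sesn1, Sesn2, Ddit4, Tsc2 and Prkab1 have been described as targets of p53, and mTOR activity has been tied to cell competition in early mouse embryos.

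The promoters of Ddit4, Ddit4l and Sesn2 are shown because the differences described below turn on these members. The sequences are RefSeq promoters on GRCm38.p6, cut to bases outside annotated exons. Of the 10 members 9 matched the promoter table, and Deptor did not. They were searched on both strands for 5 motifs: the hypoxia response core ACGTG, the p53 half-site consensus, the ATF4 composite element TGATGNAAN, the FoxO core GTAAACA and the TATA box core TATAAA. No match of one motif overlapped a match of another in these windows. Capitals mark a match.
Ddit4, chr10:59951835-59952020, minus strand: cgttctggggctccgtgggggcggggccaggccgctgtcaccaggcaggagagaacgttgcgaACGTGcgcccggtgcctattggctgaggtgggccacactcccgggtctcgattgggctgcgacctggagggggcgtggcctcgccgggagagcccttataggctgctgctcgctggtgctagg
Ddit4l, chr3:137623422-137623671, plus strand: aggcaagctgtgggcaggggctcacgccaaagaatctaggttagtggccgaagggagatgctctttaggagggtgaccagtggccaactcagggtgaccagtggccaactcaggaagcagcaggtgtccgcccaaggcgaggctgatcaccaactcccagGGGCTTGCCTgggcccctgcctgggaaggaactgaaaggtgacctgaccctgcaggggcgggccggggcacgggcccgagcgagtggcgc
Sesn2, chr4:132510502-132510706, minus strand: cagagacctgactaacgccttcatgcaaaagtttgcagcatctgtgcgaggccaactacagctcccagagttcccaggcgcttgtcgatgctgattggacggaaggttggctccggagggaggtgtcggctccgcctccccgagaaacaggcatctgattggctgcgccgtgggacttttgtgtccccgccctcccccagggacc
The Ddit4 window held ACGTG 187 bases before the RefSeq start, a string found in 16.6% of the 32851 promoters of the table. The Ddit4l window held a p53 half-site 90 bases before the start, read on both strands, and 7.13% of promoters held one. One of the Sesn1 windows, which are not printed, also held a p53 half-site, 173 bases before its start, and the windows of the other matched members held none of the 5 motifs. The printed Ddit4l window lies within the annotated span of its gene, whose first base is 137621612. None of the 5 motifs was found in the printed Sesn2 window. ATF4 composite elements, FoxO cores and TATA cores were in 3.44%, 3.17% and 12.4% of promoters. A match says only that these letters are present, and no binding was measured here.

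Libraries held 26722541 to 72981570 counts, with a median of 53098728, and mitochondrial genes took 0.639% to 1.77% of them. The lowest count of any member in any library was 55, so all 10 passed the filter on low counts in every comparison. Counts below are normalized by size factors, differences are log2 fold changes from edgeR's quasi-likelihood test, and adjusted p-values follow Benjamini and Hochberg over all genes tested, with 0.05 as the threshold. The naive pluripotency markers Klf4, Esrrb, Nanog, Zfp42 and Tfcp2l1 summed to 150221 to 186153 normalized counts in the 9 libraries of mES cells. At all 6 times Trp53 was lower in the knockout clone than in its WT–emiRFP parent, by a log2 fold change of -3.58 to -3.14, which fits the label of the clone.

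Per kilobase of exon, the level of Ddit4 was the highest of the 10 genes, with a median of 5658 normalized counts per kb over the means of the 23 conditions. Sesn2 followed at 2554, Prkab1 at 1096 and Tsc2 at 807 normalized counts per kb. The other 6 genes lay between 241 for Deptor and 331 for Sesn3. The order of these lower genes is a description, because exon length was taken from the annotation and not from the transcripts expressed. Over the 23 conditions the group mean of Ddit4l ranged 24.5-fold, that of Ddit4 10.5-fold, Sesn2 3.32-fold and Deptor 3.27-fold, whereas Tsc2 ranged 1.33-fold and Tsc1 1.60-fold.

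**Figure D1:**
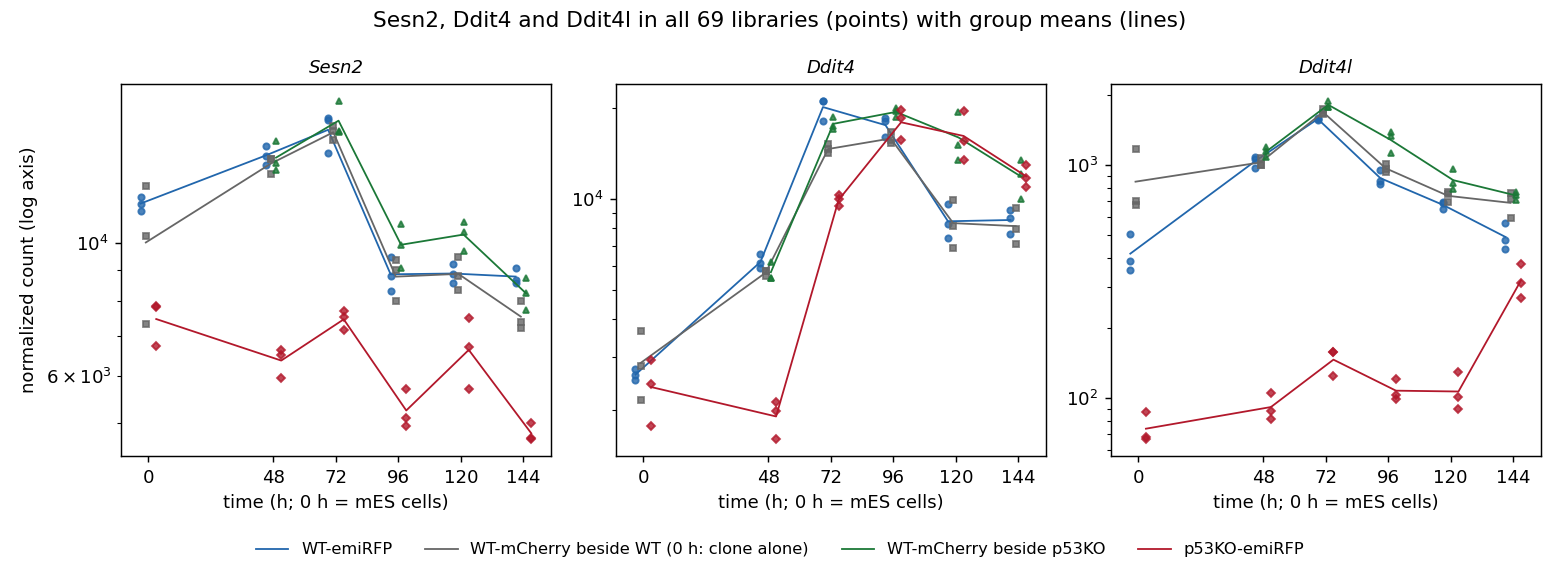
Normalized counts (log axis) of Sesn2, Ddit4 and Ddit4l against time in hours; points are libraries, lines join the means of 3, and WT–mCherry at 0 h is the clone alone. The p53KO–emiRFP libraries lie below the 3 WT populations for Sesn2 and Ddit4l at 48 to 144 h, whereas for Ddit4 they lie below at 48 and 72 h and at 120 and 144 h overlap the WT–mCherry cells that shared their gastruloids.

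The first question was whether loss of p53 changed the level of these inhibitors. In p53KO–emiRFP cells Sesn2 and Ddit4l were lower than in WT–emiRFP cells at all 6 times, and Ddit4 was lower at 48 and 72 h but higher at 120 and 144 h. Deptor was lower at 120 and 144 h, Prkab1 was slightly higher from 48 h on, and Sesn1 and Sesn3 passed the threshold at no time. These comparisons set cells of WT + p53KO gastruloids against cells of WT + WT gastruloids, so genotype and neighbours changed together from 48 h on and cannot be told apart in them. The libraries are bulk samples, in which fewer cells of a type and less RNA per cell cannot be told apart.

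Cell type markers moved with genotype at every time. Of 8 marker lists, the summed normalized counts did not overlap between the p53KO–emiRFP and WT–emiRFP libraries in 5 lists at 0 h and 48 h, in 6 at 72 h and 96 h, and in 7 at 120 h and 144 h. The 2 WT clones of the WT + WT gastruloids stood apart in marker sums too, so such a separation is not particular to this comparison. At 72 h the endoderm list summed to 24421 to 25224 in WT–mCherry and 17338 to 19883 in WT–emiRFP cells. Naive pluripotency summed to 28402 to 29679.5 and 22074 to 24455, whereas caudal epiblast overlapped, at 53715 to 70222 and 63837 to 80444. The part of these markers in the differences of the members was not tested. At 0 h the naive pluripotency list summed to 175491 to 186153 in WT–emiRFP and 150221 to 156072 in p53KO–emiRFP cells. At 48 h the endoderm list (Cer1, Foxa2, Sox17 and Trh) summed to 8427 to 9378 in WT–emiRFP and 6295 to 6814 in p53KO–emiRFP cells, and the germ cell list (Dppa3, Nanos3, Prdm1 and Prdm14) to 719 to 764 and 1089.5 to 1339. The caudal epiblast list, whose genes are given below, stood at 194 to 230 and 322 to 351 at 48 h. The neural list stood at 8337 to 8427 and 8581 to 9021, and paraxial mesoderm at 956 to 1146 and 848 to 955.5. At 72 h the naive pluripotency list summed to 22074 to 24455 and 18901 to 19535 (3 of 5 lower). At 96 h its ranges were 23274 to 25901 and 9419 to 10370.3 (5 of 5 lower), and those of the caudal epiblast list (T, Wnt3a, Nkx1-2 and Cdx2) 59665 to 69498 and 96648 to 104871 (4 of 4 higher). The knockout cells were thus lower in pluripotency markers and higher in caudal epiblast markers at 96 h. At 120 h naive pluripotency stood at 52651 to 60446 and 9094.6 to 9838 (5 of 5 lower), and paraxial mesoderm (Tbx6, Msgn1, Meox1, Hes7 and Dll1) at 11409.8 to 15429 and 45679 to 56571 (4 of 5 higher). Caudal epiblast was at 8405 to 10796.5 and 33246 to 37213 (4 of 4 higher), and the haematoendothelial list (Kdr, Etv2, Cdh5, Pecam1 and Tal1) at 5315 to 5479.7 and 812 to 1132 (4 of 5 lower). Germ cell markers were at 3102 to 3281 and 884 to 1075 (4 of 4 lower), and the neural list (Sox1, Sox2, Pax6 and Irx3) at 12712 to 14842 and 6695 to 7552 (1 of 4 higher, 1 lower). At 144 h the ranges were 68698 to 80741 and 11043.5 to 16829.7 for naive pluripotency (5 of 5 lower) and 3371 to 4688 and 22746 to 29416 for paraxial mesoderm (5 of 5 higher). Caudal epiblast then stood at 536 to 690 and 11610 to 12127, and haematoendothelial markers at 7144 to 7174 and 1682 to 2139.

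At 0 h no member was higher and 2 were lower, against 1.97% of all tested genes higher and 4.17% lower. At 48 h 2 members were higher and 3 lower, when 10.2% and 11.7% of genes were. At 72 h the counts were 2 higher and 4 lower, against 13.4% and 15.7%. At 96 h 1 member was higher and 2 were lower, against 9.39% and 13.7%. At 120 h 2 were higher and 3 lower, against 27.3% and 23.7%, and at 144 h 2 were higher and 5 lower, against 33.1% and 32.1%. The member counts at 120 and 144 h are thus near the background of those times, where 51.0% and 65.2% of genes passed in either direction. The median log2 fold change of the 10 members lay between -0.18 at 144 h and -0.04 at 0 h.

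**Figure D2:**
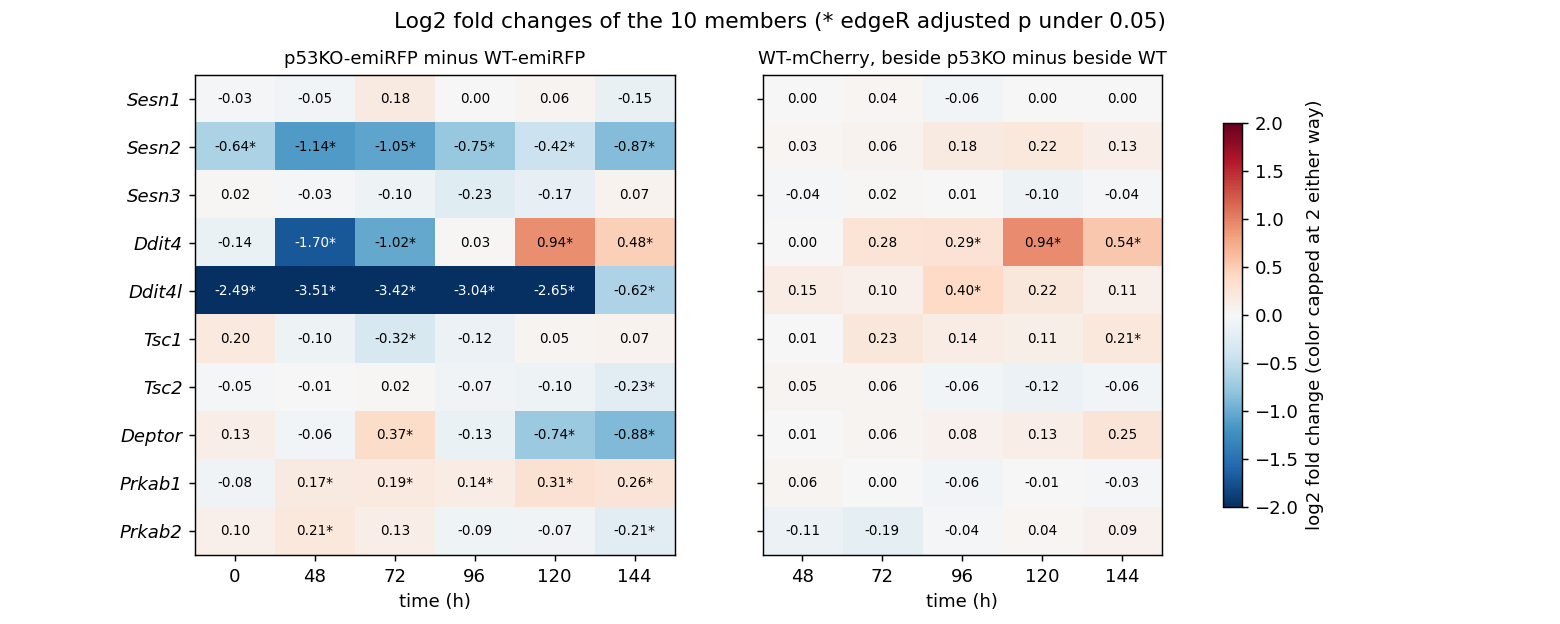
Log2 fold changes of the 10 members (rows) by time in hours (columns), for p53KO–emiRFP minus WT–emiRFP cells and for WT–mCherry cells beside p53KO minus beside WT; asterisks mark an edgeR adjusted p under 0.05. In the left panel Sesn2 and Ddit4l are negative at all 6 times, and in the right panel Ddit4 has the highest value, 0.94 at 120 h.

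Sesn2 (chr4:132492032-132510501, minus strand), the sestrin best known as a leucine sensor, was held at a lower level in p53KO cells throughout. In mES cells it measured 11936, 11629.5 and 11318 normalized counts in the WT–emiRFP libraries and 6729, 7820.3 and 7839 in the p53KO–emiRFP libraries. All 3 knockout libraries were below all 3 WT–emiRFP libraries (log2 fold change -0.64, SE 0.15, adjusted p = 0.0186), but the call was lost without replicate 2 (adjusted p = 0.222) and against the WT–mCherry clone (log2 fold change -0.43, adjusted p = 0.0537). At 48 h the WT–emiRFP libraries held 13481, 13973 and 14496 and the knockout libraries 5962, 6636 and 6492. The groups were again apart, and the difference was the widest for this gene (log2 fold change -1.14, SE 0.05, adjusted p = 1.01e-10). At 72 h the means were 15436 ± 1119.5 and 7455 ± 275 (SD, n = 3 here and below), a log2 fold change of -1.05, and at 96 h it was -0.75 (SE 0.08, adjusted p = 5.93e-06). At 120 h the knockout libraries rose to 7486, 5709.5 and 6693 against 8868, 9219.5 and 8579, which narrowed the difference to -0.42 (SE 0.08, adjusted p = 0.000708) without overlap. At 144 h it was -0.87, with knockout libraries at 5007, 4729 and 4704 and WT–emiRFP libraries at 9095, 8575 and 8685.

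The other sestrins passed the threshold at no time in this comparison. Sesn1 (chr10:41809935-41908424, plus strand) measured 1034, 1109 and 1103 normalized counts in WT–emiRFP and 982, 1097 and 1064 in p53KO–emiRFP cells at 48 h, with overlapping groups. Its log2 fold change lay between -0.15 at 144 h and 0.18 at 72 h over the 6 times, with adjusted p-values of 0.0504 and 0.054 at these times, where the groups did not overlap. With the replicate number as a block both passed the threshold, at adjusted p = 0.0212 and 0.0157. Sesn3 (chr9:14275067-14333101, plus strand), which is known as a FoxO target, was at 5303 ± 554 in WT–emiRFP and 4506 ± 273 in p53KO–emiRFP cells at 96 h. The libraries overlapped, and the adjusted p was 0.0747 without and 5.52e-06 with the block. At 120 h its log2 fold change was -0.17, with adjusted p = 0.163 without and 0.00538 with the block. The 95% intervals for Sesn3 in mES cells, -0.27 to 0.31, and for Sesn1, -0.26 to 0.20, both spanned 0.

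Ddit4 (chr10:59949669-59951834, minus strand) turned from lower to higher in p53KO cells as the gastruloids grew. In mES cells it was at 2738, 2528 and 2611 normalized counts in WT–emiRFP and 1781, 2451 and 2937 in p53KO–emiRFP libraries, and the groups overlapped (log2 fold change -0.14, SE 0.18, adjusted p = 0.771). At 48 h WT–emiRFP libraries held 5892, 6557 and 6134 and p53KO–emiRFP libraries 1605, 2139.8 and 1984. Each knockout library was far below each WT–emiRFP library, by 3.24-fold on the means (log2 fold change -1.70, SE 0.08, adjusted p = 3.13e-10). At 72 h, after the CHIR99021 pulse, both populations were higher than at 48 h, at 21158, 21082 and 18169 in WT–emiRFP and 10030.5, 10279 and 9479.8 in p53KO–emiRFP libraries. The knockout libraries remained below (log2 fold change -1.02, SE 0.06, adjusted p = 3.92e-09). At 96 h the libraries mixed, with 16039, 18546 and 18059 in WT–emiRFP and 15708, 19633 and 18461 in p53KO–emiRFP cells, and the log2 fold change was 0.03 (95% interval -0.14 to 0.20, adjusted p = 0.809). At 120 h WT–emiRFP libraries had fallen to 8244, 9649.8 and 7426, while p53KO–emiRFP libraries held 13484, 19492 and 15502. All 3 knockout libraries were now above all 3 WT–emiRFP libraries (log2 fold change 0.94, SE 0.16, adjusted p = 0.00023), and so they were at 144 h (12994, 11742 and 10925 against 8676, 9214 and 7680.3, log2 fold change 0.48, SE 0.12, adjusted p = 0.00334). Neither of these later differences was called against WT–mCherry cells of the same gastruloids, for which values follow.

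Ddit4l (chr3:137621612-137628333, plus strand), a paralogue of Ddit4, showed the deepest loss of the 10 genes. WT–emiRFP libraries held 508, 355 and 389.6 normalized counts in mES cells and p53KO–emiRFP libraries 87.1, 68.3 and 66.7. At 72 h, the time of its highest WT–emiRFP level, the values were 1591, 1571 and 1575 and 158, 157 and 124. Neither time showed any overlap, and p53KO–emiRFP cells kept 17.7% of the WT–emiRFP mean at 0 h and 9.28% at 72 h. The log2 fold changes from 0 to 120 h lay between -3.51 at 48 h and -2.49 at 0 h, with adjusted p-values of at most 3.22e-05. At 144 h the difference was smaller, with WT–emiRFP libraries at 563, 437 and 477 and p53KO–emiRFP libraries at 377, 271 and 313 (log2 fold change -0.62, SE 0.13, adjusted p = 0.000796). The groups still did not overlap, and the knockout mean stood at 65.0% of the WT–emiRFP mean. Against WT–mCherry cells of the same gastruloids the log2 fold change at 144 h was -1.21 (adjusted p = 1.78e-06). Against WT–emiRFP cells that narrowing came from both sides, since Ddit4l was 107 ± 20.4 in p53KO–emiRFP and 676 ± 25.9 in WT–emiRFP cells at 120 h.

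The TSC subunits gave small differences. Tsc1 (chr2:28641228-28691167, plus strand), which stabilizes its partner, was lower in p53KO–emiRFP cells at 72 h, where WT–emiRFP libraries held 4042, 3999 and 4367 and knockout libraries 3206, 3376 and 3326 normalized counts (log2 fold change -0.32, SE 0.05, adjusted p = 0.00022). No library overlapped at 72 h. The block also called Tsc1 lower at 48 h (log2 fold change -0.10, adjusted p = 0.0161 against 0.263 without it) and at 96 h (-0.12, 0.019 against 0.2). Tsc2 (chr17:24595816-24632630, minus strand), the catalytic partner, gave log2 fold changes of -0.10 to 0.02 from 0 to 120 h and passed the threshold at none of those times. At 144 h it fell in p53KO–emiRFP libraries to 6344, 6391 and 6596 against 7473, 7581 and 7666 (log2 fold change -0.23, SE 0.04, adjusted p = 0.000261). These groups did not overlap, but against WT–mCherry cells of the same gastruloids the log2 fold change was -0.02 (adjusted p = 0.745).

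Deptor (chr15:55112317-55259271, plus strand) was called higher in p53KO–emiRFP cells at 72 h and lower at 120 and 144 h, and the values at 0 h (0.13, adjusted p = 0.773) and 48 h (-0.06, adjusted p = 0.621) gave no call. At 72 h it was higher in the p53KO–emiRFP libraries, at 2365, 2510.4 and 2846 normalized counts against 1678, 2048 and 2250.0 (log2 fold change 0.37, SE 0.09, adjusted p = 0.00806). The groups did not overlap, yet the call was lost without replicate 2 (adjusted p = 0.0859) and against WT–mCherry cells of the same gastruloids (0.22, adjusted p = 0.0922). By 120 h the order was inverted, with knockout libraries at 1177, 1434 and 1412 and WT–emiRFP libraries at 2079, 2248 and 2378 (log2 fold change -0.74, SE 0.10, adjusted p = 2.68e-05). All knockout libraries were below all WT–emiRFP libraries, and at 144 h the values were 1038, 1305 and 1262 and 1948, 2073 and 2608 (log2 fold change -0.88, SE 0.13, adjusted p = 5.27e-05). At 96 h the log2 fold change was -0.13, with adjusted p = 0.0912 without and 0.0224 with the block.

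Prkab1 (chr5:116013586-116024508, minus strand), which encodes the AMPK β1 scaffold, was slightly higher in p53KO–emiRFP gastruloid cells. At 120 h the knockout libraries held 4101, 3838 and 3742 normalized counts and the WT–emiRFP libraries 3137, 3117 and 3187, without overlap (log2 fold change 0.31, SE 0.05, adjusted p = 0.000177). The log2 fold changes at 48, 72, 96 and 144 h were 0.17, 0.19, 0.14 and 0.26, with adjusted p-values of 0.0112, 0.0241, 0.024 and 0.00234. The calls at 72 and 96 h were lost when any 1 replicate was left out (adjusted p = 0.0637 to 0.235), and that at 48 h was lost without replicate 1 (0.128) or 2 (0.0647). A fit of the 2 compared groups also ended the calls at 72 h (0.0521) and 96 h (0.0617), TMM scaling that at 72 h (0.0505), and the fit without a low-count filter that at 96 h (0.110). Prkab2 (chr3:97658193-97673812, plus strand), the β2 scaffold, was higher at 48 h (log2 fold change 0.21, SE 0.07, adjusted p = 0.0393) and lower at 144 h (log2 fold change -0.21, SE 0.08, adjusted p = 0.0268). Both were small, and each was lost when either of a pair of replicates was left out, at 48 h replicate 1 (adjusted p = 0.239) or 2 (0.193) and at 144 h replicate 2 (0.0893) or 3 (0.0717). The call of Prkab2 at 48 h was also lost with TMM scaling (0.0546) and in the fit of all 23 groups (0.0577).

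**Figure D3:**
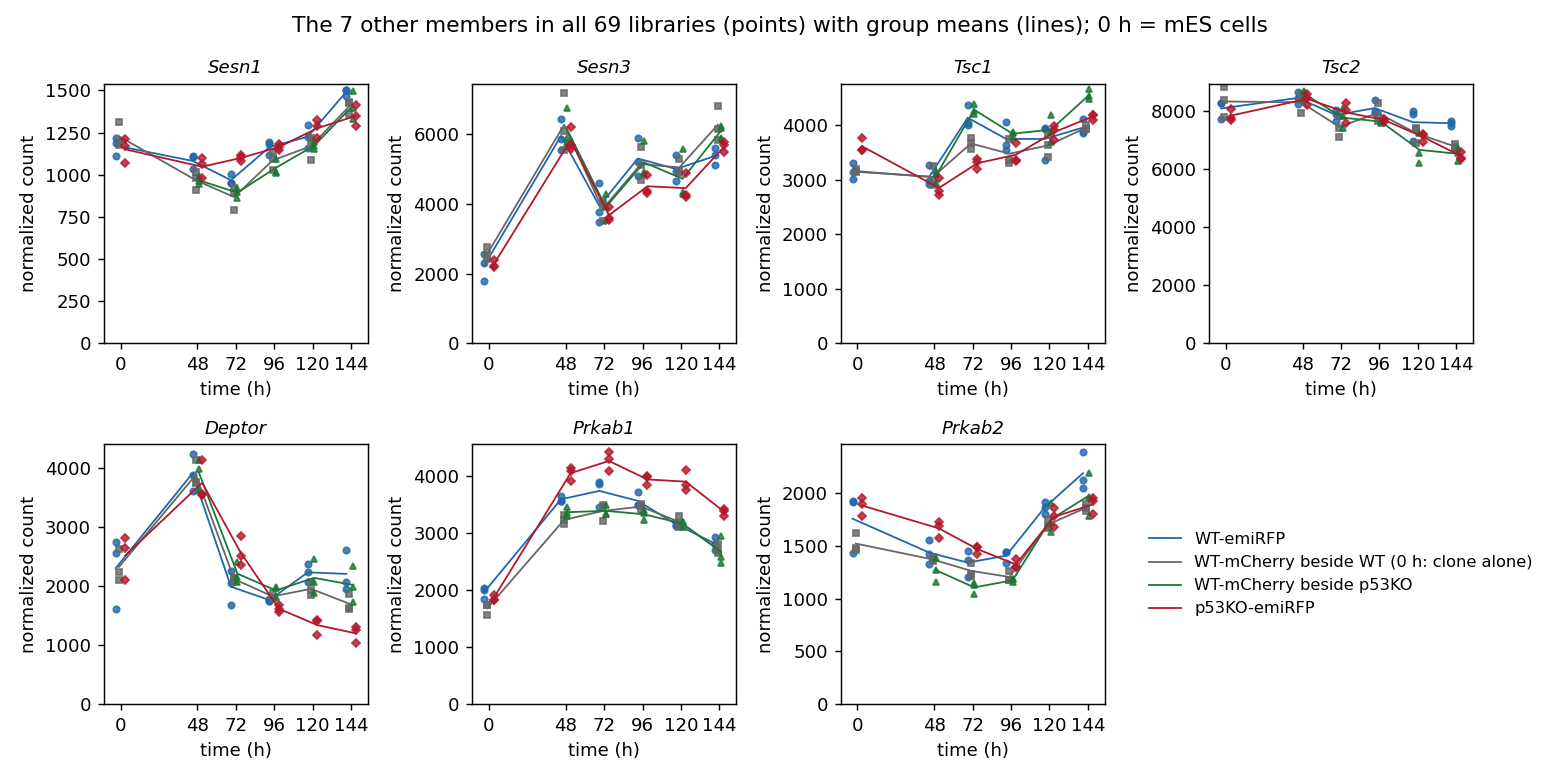
Normalized counts of the other 7 members against time in hours, on linear axes from 0; points are libraries, lines join the means of 3, and WT–mCherry at 0 h is the clone alone. Prkab1 libraries of p53KO–emiRFP cells lie above the WT populations from 48 h, and their Deptor libraries lie below them from 96 h.

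The second question was whether WT cells changed these genes when their neighbours lacked p53. The neighbours also differed in seeding, with 150 WT–emiRFP or 25 p53KO–emiRFP cells. Their genotype and their seeded number therefore cannot be told apart in this comparison. In WT–mCherry cells Ddit4 was higher beside p53KO than beside WT cells at 96, 120 and 144 h, Ddit4l was higher at 96 h, and Tsc1 was higher at 144 h. No member was lower at any time by this test, when 0.0849%, 0.384%, 1.03%, 2.55% and 15.4% of all genes were lower from 48 to 144 h. At 48 h no member was called, when 0% of genes were called higher, 0 members had an unadjusted p under 0.05, and no member was called under any of the 10 alternatives run, DESeq2 among them. At 72 h again none was called, against 0.277% of genes higher. At 96 h 2 members were higher against 2.89%, at 120 h 1 against 3.51%, and at 144 h 2 against 9.88% of genes. At 72 h 3 members had an unadjusted p under 0.05, and DESeq2 called 2, Ddit4 and Tsc1, both higher. The third was Prkab2, which was lower beside p53KO cells without overlap (log2 fold change -0.19, edgeR adjusted p = 0.366).

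At 72 h WT–mCherry libraries held 15146, 14155 and 14597 normalized counts of Ddit4 beside WT and 17456, 18683 and 17036 beside p53KO cells. The groups did not overlap, but the adjusted p was 0.0604 (log2 fold change 0.28, SE 0.06), and with the replicate block it was 0.00385. Tsc1 gave a log2 fold change of 0.23 at 72 h, with adjusted p = 0.0617 without and 0.0112 with the block. At 96 h Ddit4 measured 15291, 15654 and 16612 beside WT and 18642, 20042 and 19539.8 beside p53KO cells (log2 fold change 0.29, SE 0.07, adjusted p = 0.0412). The groups were apart, yet leaving out any 1 replicate took the call away (adjusted p = 0.104 to 0.320), as did a fit of all 23 groups (0.333). Ddit4l at 96 h was at 1014, 965 and 934 and 1383, 1338 and 1131 (log2 fold change 0.40, SE 0.09, adjusted p = 0.0196), without overlap, and its call was lost without replicate 1 (adjusted p = 0.361) or 2 (0.196) and in the fit of all 23 groups (0.0558). With the block, Tsc1 (0.14, adjusted p = 0.00805 against 0.209) and Sesn2 (0.18, 0.000153 against 0.215) also passed at 96 h.

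The widest neighbour difference was that of Ddit4 at 120 h. WT–mCherry libraries beside WT cells held 8159.6, 9930.2 and 6877 normalized counts, and those beside p53KO cells held 13459, 19401 and 15082. Every library beside p53KO cells was above every library beside WT cells, by 1.92-fold on the means (log2 fold change 0.94, SE 0.16, adjusted p = 0.00384). Without replicate 1 the adjusted p was 0.0805 and without replicate 3 it was 0.0652, at log2 fold changes of 1.04 and 0.86. At 144 h the libraries held 7954, 9363 and 7087 beside WT and 13465, 12122 and 10026 beside p53KO cells (log2 fold change 0.54, SE 0.12, adjusted p = 0.00616). They did not overlap, and without replicate 1 the adjusted p was 0.0947. Tsc1 at 144 h was 3926, 3936 and 3999 beside WT and 4531, 4664 and 4478 beside p53KO cells (log2 fold change 0.21, SE 0.04, adjusted p = 0.00444), also without overlap, and without replicate 2 its adjusted p was 0.0974. With the block, Sesn2 (0.13, adjusted p = 0.0488 against 0.113) and Deptor (0.25, 0.00796 against 0.178) passed at 144 h too.

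Other measures moved with the neighbour differences. H2bc14 is a histone H2B gene with high counts in the emiRFP clones and low counts in WT–mCherry cells. From it the share of emiRFP RNA in each WT–mCherry library was estimated. The estimate takes the H2bc14 mean of WT–mCherry mES cells as the level of WT–mCherry cells at all times, which was not tested. From 48 h on that share was 0.0919% to 2.01% beside WT cells. Beside p53KO cells it was at most 3.49% up to 96 h, 7.35%, 2.91% and 6.55% in the 3 libraries at 120 h, and 16.8%, 2.26% and 9.10% at 144 h. After subtraction of that share the neighbour log2 fold changes of Ddit4 from 72 to 144 h were 0.29, 0.30, 0.94 and 0.55. At 120 and 144 h p53KO–emiRFP cells differed from these WT–mCherry cells by only 0.02 and 0.00 in Ddit4, so subtraction could hardly move it. Sesn2 at 144 h went from 0.13 (adjusted p = 0.113) to 0.20 (0.0297) with subtraction and so passed the threshold. Of the 8 marker lists, the sums beside WT and beside p53KO cells did not overlap in 3, 7, 4, 6 and 3 lists from 48 to 144 h. At 96 h, when Ddit4 and Ddit4l were called, these were naive pluripotency (24751 to 30105 beside WT and 20562 to 22849 beside p53KO cells, 3 of 5 markers lower), caudal epiblast (69495 to 74757 and 77599 to 81501), germ cell (1241 to 1540.3 and 1137 to 1237, 1 of 4 lower) and neural (7272 to 8571 and 7025 to 7207). At 120 h naive pluripotency summed to 41056 to 50283 and 33982 to 37687 (2 of 5 lower). The paraxial mesoderm markers summed to 14858 to 20529 normalized counts beside WT and 25771 to 31783 beside p53KO cells at 120 h, and 4 of the 5 were higher. At 144 h those sums were 7212 to 9114 and 4845 to 8805, with 3 of the 5 markers higher and 1 lower. Caudal epiblast markers summed to 11676 to 14003 and 17196 to 20731 at 120 h (3 of 4 higher), and to 708 to 916 and 2138 to 2575 at 144 h (4 of 4 higher). Haematoendothelial markers summed to 3661 to 4372 beside WT and 2605 to 2986 beside p53KO cells at 120 h (3 of 5 lower). Of 4 markers each for endoderm, primordial germ cells, neural and cardiac cells at 120 h, 1 of the endoderm list was higher, and 1 of the germ cell list and 2 of the neural list were lower. At 144 h the endoderm list summed to 1634 to 2024 beside WT and 2388 to 3069 beside p53KO cells (2 of 4 higher), and the neural list to 17764.5 to 20038 and 13758 to 17128 (2 of 4 lower). No marker of these lists was at 0 in all libraries of a group, and the part of cell type composition in the Ddit4, Ddit4l and Tsc1 values was not tested.

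A comparison inside the same gastruloids set p53KO–emiRFP cells against the WT–mCherry cells around them. For Ddit4 the p53KO–emiRFP cells were lower at 48 h (log2 fold change -1.58, SE 0.08, adjusted p = 6.77e-10) and at 72 h (log2 fold change -0.84, SE 0.06, adjusted p = 4.21e-08). At 120 h the WT–mCherry libraries held 13459, 19401 and 15082 normalized counts and the p53KO–emiRFP libraries 13484, 19492 and 15502, so that each replicate had nearly the same value in both populations. The log2 fold change was 0.02, with a 95% interval of -0.35 to 0.39 (adjusted p = 0.948), and at 144 h it was 0.00, with an interval of -0.27 to 0.28 (adjusted p = 0.988). The rise of Ddit4 in p53KO–emiRFP over WT–emiRFP cells at these times was thus not seen over WT–mCherry cells of the same gastruloids. The intervals allow differences up to their bounds, so equal levels are not shown. Sesn2 and Ddit4l remained lower in p53KO–emiRFP cells at all 5 gastruloid times in this comparison, with log2 fold changes of -0.64 and -3.01 at 120 h. Deptor was lower at 120 h (-0.67, adjusted p = 0.000108) and at 144 h (-0.75, 0.000218). Prkab1 was higher at all 5, by 0.24 to 0.34. Against these controls Prkab2 at 144 h gave -0.07 (adjusted p = 0.476) and Tsc2 at 120 h 0.09 (adjusted p = 0.288). Calls that WT–emiRFP cells did not give were those of Prkab2 at 72 h (0.41, adjusted p = 0.000464), Sesn1 at 72 h (0.30, 0.00321) and Deptor at 96 h (-0.25, 0.00202). In 2 more calls the sign was opposite to that against WT–emiRFP cells: Prkab2 at 96 h was higher (0.17, adjusted p = 0.0338) and Tsc1 at 144 h was lower (-0.13, adjusted p = 0.0174). Both comparisons use the same p53KO–emiRFP libraries and are not independent, and this one also changes the clone and its reporter.

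**Figure D4:**
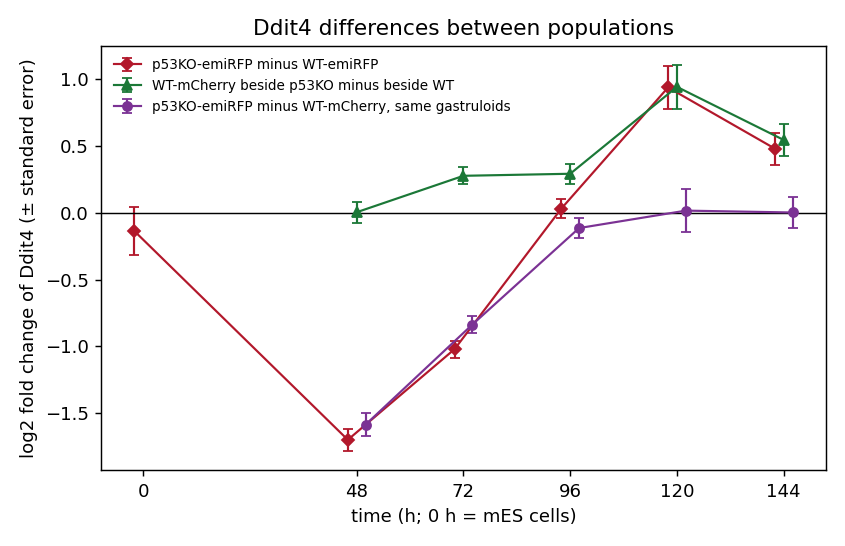
Log2 fold change of Ddit4 with its standard error against time in hours, for 3 comparisons of 3 against 3 libraries. The red and green lines reach 0.94 at 120 h, and the purple line, inside the same gastruloids, runs from -1.58 at 48 h to 0.00 at 144 h.

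The clones themselves differed in a few members. WT–mCherry cells compared with WT–emiRFP cells of the same WT + WT gastruloids (of separate cultures at 0 h) differed in 1 member at 0 h, when 11.0% of all genes differed in either direction. This was Ddit4l, at 1175, 674 and 701 normalized counts in WT–mCherry and 508, 355 and 389.6 in WT–emiRFP mES cells (log2 fold change 1.03, SE 0.21, adjusted p = 0.00785). The groups did not overlap, and the call was lost without replicate 2 (adjusted p = 0.0862) or 3 (0.0547). At 48 h 1 member differed against 8.98% of genes, namely Prkab1 (log2 fold change -0.15, SE 0.05, adjusted p = 0.0433), which was lost when any 1 replicate was left out (adjusted p = 0.117 to 0.246), and with the block Sesn1 passed as well (-0.16, adjusted p = 0.00957 against 0.138). At 72 h 1 member differed against 7.69%, and it was Ddit4, lower in WT–mCherry cells (log2 fold change -0.46, SE 0.06, adjusted p = 0.000296).

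By edgeR no member was called at 96 h, against 2.16% of genes, and none at 120 h, against 1.30%. At these times 1 and 0 members had an unadjusted p under 0.05, and DESeq2 called 1 at 96 h and 0 at 120 h. The block called Prkab2 (-0.22, adjusted p = 0.00136 against 0.0512) and Ddit4 (-0.15, 0.0148 against 0.347) at 96 h, and Deptor at 120 h (-0.19, 0.0454 against 0.413). At 144 h 5 members differed against 23.8% of genes. Sesn3 (0.22) and Ddit4l (0.48) were higher in WT–mCherry cells, and Sesn2 (-0.22), Tsc2 (-0.16) and Prkab2 (-0.23) were lower, with adjusted p-values of 0.0115 to 0.0409. Leaving out 1 replicate brought this count to 1 without replicate 1, 2 without replicate 2 and 0 without replicate 3. With the block Deptor passed at 144 h too (-0.38, adjusted p = 0.000327 against 0.0509).

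Most members changed with time. The WT mean averaged both WT clones at 0 h and, from 48 h, WT–emiRFP cells, WT–mCherry cells beside WT and WT–mCherry cells beside p53KO cells with equal weight. In this mean Ddit4 rose by a log2 fold change of 1.09 from 0 to 48 h (SE 0.10, adjusted p = 3.34e-14) and by 1.56 from 48 to 72 h (SE 0.09, adjusted p = 3.93e-22), across the CHIR99021 pulse, and fell by 0.76 from 96 to 120 h. At this last step the normalized counts of WT–emiRFP cells went from 17548 ± 1329 to 8439.8 ± 1125, and those of WT–mCherry cells beside WT from 15852 ± 682 to 8322 ± 1533. Beside p53KO cells they went from 19408 ± 709 to 15981 ± 3071. Sesn3 rose by 1.35 from 0 to 48 h and Prkab1 by 0.90. Deptor rose by 0.76 to 48 h and then fell by 0.89 to 72 h. Sesn2 and Ddit4l fell from 72 to 96 h, by 0.76 and 0.71. Of the 10 members 8 changed from 0 to 48 h, 9 from 48 to 72 h, 6 from 72 to 96 h, 7 from 96 to 120 h and 7 from 120 to 144 h. Over all genes 70.1%, 66.7%, 58.6%, 56.8% and 55.4% changed at those steps, so the members were not far from the share of all genes.

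In p53KO–emiRFP cells 6, 6, 5, 3 and 6 members changed at the same steps, against 59.4%, 46.2%, 44.4%, 34.8% and 22.5% of genes. With the block, Sesn1 (-0.14, adjusted p = 0.0308 against 0.0514) and Tsc2 (0.10, 0.0424 against 0.0683) also passed from 0 to 48 h. So did Prkab2 from 48 to 72 h (-0.18, 0.0321 against 0.0534) and Prkab1 from 72 to 96 h (-0.11, 0.0261 against 0.0621). Ddit4 in these cells gave no call from 0 to 48 h (log2 fold change -0.32, SE 0.15, adjusted p = 0.063), although the block (adjusted p = 0.0483), DESeq2 (0.0449), TMM scaling (0.0465) and the fit without a low-count filter (3.95e-05) called it lower. It rose by 2.38 from 48 to 72 h (SE 0.16, adjusted p = 2.17e-18) and again by 0.85 from 72 to 96 h (adjusted p = 2.8e-06), a step at which the WT mean gave 0.02 (adjusted p = 0.889). Ddit4l rose by 1.58 from 120 to 144 h (SE 0.15, adjusted p = 2.12e-12), from 89.9, 129.6 and 101 to 377, 271 and 313 normalized counts. In the WT mean Ddit4l fell by 0.26 at that step (adjusted p = 0.00197). The p53KO steps were measured in 1 clone, and fewer libraries entered them than the WT mean. Leaving out 1 replicate gave 1 to 3 members for the step from 96 to 120 h, where 1 remained without replicate 1. The counts of 5 at the step from 72 to 96 h and of 6 at the last step dropped to 3 without replicate 2.

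Whether the difference between p53KO–emiRFP and WT–emiRFP cells depended on time was tested over all 6 times at once. The test set each gastruloid time against the separate cultures of 0 h. The onset of different neighbours therefore enters it too and cannot be told apart from genotype. By this test 9 of the 10 members passed, when 62.3% of all genes did. The smallest adjusted p-values belonged to Ddit4l (3.12e-19), Ddit4 (2.18e-15) and Deptor (2.5e-08). Sesn3 alone missed the threshold, with adjusted p = 0.355, and with the replicate block it passed at 0.0273. The like test for WT–mCherry cells, added after the values were seen, asked whether the neighbour difference depended on time from 48 to 144 h. Ddit4 was the 1 member that passed it (adjusted p = 0.00996), against 11.5% of genes, and the other 9 gave adjusted p-values from 0.24 for Tsc2 to 0.983 for Sesn3.

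Genes with the most similar pattern were found by the Pearson correlation of log2 group means over the 23 conditions, among 14078 genes. These correlations are descriptions, since the conditions share time points, clones and libraries. For Ddit4 they were Acot6 (r = 0.954), Exoc7 (0.951) and Hoga1 (0.951), and for Ddit4l they were Inka2 (0.970), Ano3 (0.966) and Rnf169 (0.964). Sesn2 was closest to Gfer (0.936), Aaas (0.930) and Cgref1 (0.910). Deptor was closest to Pdzd4 (0.965), Ovol2 (0.964) and Dnah7a (0.959). Sesn1 had Esx1 (0.917), Proca1 (0.916) and Txnip (0.916), and Sesn3 had Plekha5 (0.906), Zfp608 (0.904) and Ankrd50 (0.901). Among the members, Sesn2 and Ddit4l ran together (r = 0.770), as did Sesn1 and Prkab2 (0.833), whereas the r of Ddit4 with Sesn2 was 0.0521 and Tsc1 ran against Tsc2 (-0.772).

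The wider pathway was read from lists of 92 genes, of which 90 were in the table. In the comparison of p53KO–emiRFP with WT–emiRFP cells, 0, 10, 18, 17, 29 and 33 of the pathway genes tested were called higher from 0 to 144 h, and 2, 10, 10, 9, 19 and 25 were called lower. As a share these were 2.25%, 22.7%, 31.5%, 28.9%, 53.3% and 64.4%, beside 6.14%, 22.0%, 29.1%, 23.1%, 51.0% and 65.2% of all genes. The difference of these shares was not tested. The pathway's median log2 fold change was between 0.00 and 0.06.

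The lists differed in their counts. Of ATF4 and 7 of its targets, which serve the amino acid stress response, 7 of 8 were higher at 72 h and 7 of 8 at 96 h, with median log2 fold changes of 0.63 and 0.60 beside 0.01 and -0.01 for all genes, of which 13.4% and 9.39% were higher. Among them Chac1, a glutathione-degrading enzyme, gave 1.66 (SE 0.10, adjusted p = 2.03e-09) and Trib3, a pseudokinase, gave 1.19 (SE 0.09, adjusted p = 6.54e-08) at 72 h, both named after their values were seen. By 144 h 3 were higher and 4 lower. Of 10 genes of the PI3K and Akt arm, which signals from growth factor receptors to TSC, 7 were higher and 2 lower at 120 h and 8 higher and 1 lower at 144 h, with medians of 0.45 and 0.60. Of 10 subunits and partners of the mTOR complexes, 6 were higher at 120 h and 6 at 144 h, with 1 and 3 lower. Of 8 hypoxia-response genes, 3 were higher and 3 lower at 120 h. At 120 h 27.3% of all genes were higher and 23.7% lower, with a median of 0.05, and at 144 h 33.1% were higher and 32.1% lower, with a median of 0.01.

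Within the lists, Foxo3, a transcription factor restrained by Akt, was lower in p53KO–emiRFP cells at all 6 times, with log2 fold changes of -2.71 to -0.34 and a mean of -1.54. Ulk1, the autophagy kinase that mTORC1 inhibits, was lower at 5 of the 6 times, with a mean of -0.60. Psat1, an enzyme of serine synthesis, was higher at 5 times, with a mean of 0.55. In WT–mCherry cells beside p53KO cells, 0, 2, 5, 5 and 8 pathway genes were called higher from 48 to 144 h, and 0, 1, 1, 3 and 23 were called lower. In either direction these were 0%, 3.37%, 6.67%, 8.89% and 34.4% of the pathway genes, beside 0.0849%, 0.660%, 3.92%, 6.06% and 25.3% of all genes. At 144 h the transcription factor Ddit3 (CHOP) was higher (log2 fold change 1.07, SE 0.17, adjusted p = 0.000955), and the insulin receptor substrate Irs1 (-1.05, SE 0.14, adjusted p = 0.00019) and the PI3K subunit Pik3r1 (-0.73, SE 0.11, adjusted p = 0.00081) were lower. Of the hypoxia-response genes, 3 of 8 were higher at 120 h and 2 of 8 at 144 h in these cells, and none was lower. Of the PI3K and Akt arm, 0 were higher and 6 of 10 lower at 144 h, when 9.88% of all genes were higher and 15.4% lower.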

How the data were processed

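Raw counts of uniquely mapped reads per gene symbol were deposited by the authors for all 69 libraries. Poly(A)-selected stranded libraries were trimmed with Trim Galore 0.6.7 and aligned with STAR 2.7.11b to GRCm38.p6 with Gencode genes, per the labels and the methods of the study. The strand setting of the counts is not given in the sources used here. Replicates were separate experiments. Groups followed the labels.

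Counts were scaled by median-ratio size factors over all libraries. edgeR 4.0.16 (R 4.3.3, limma 3.58.1) fitted quasi-likelihood models with filterByExpr by group, 1 fit per time point for the comparisons within a time, and 1 fit of all 23 groups for changes over time and for interactions. Adjustment over all genes tested followed Benjamini-Hochberg, with a threshold of 0.05. Standard errors came from the F statistic, and 95% intervals used the 8 residual degrees of freedom of a 12-library fit, or 6 at 0 h. Depth, 26722541 to 72981570 counts per library, limits the precision of the lower genes most. Gene positions and the exon lengths behind levels per kb came from the Gencode annotation of GRCm38. The models were tested on simulated data.

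Same-numbered replicates deviated from their group means together: over 14078 genes the mean correlation was 0.195 to 0.422 by time. Every pair was over 0.1 except in 4 comparisons, WT–mCherry against WT–emiRFP at 0 and 72 h, p53KO–emiRFP against WT–mCherry at 0 h and WT–mCherry by neighbour at 120 h. The replicate number as a block was therefore an alternative, printed beside a paired result where it changed the call. Other alternatives were TMM scaling, no low-count filter, DESeq2 1.42.0, fits of 2 groups or of all 23 groups, each replicate left out, WT–mCherry control cells, and subtraction of emiRFP RNA estimated from H2bc14.

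The 10 members and the lists were chosen with earlier results of these data known. All members are named. Pathway genes were named if called 1 way in at least 5 of the 6 genotype comparisons, or as the 3 called genes with the largest neighbour change at 144 h. Chac1 and Trib3 fall outside this rule and were named after their values were seen. Similar genes were the 3 with the highest correlation for the sestrins, Ddit4, Ddit4l and Deptor, among genes with a mean of at least 50 normalized counts.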

Additional observations from a re-analysis of the deposited data

Results flagged for a closer look

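For 9 of the 10 members the genotype difference between p53KO–emiRFP and WT–emiRFP cells differed between times by the interaction test of edgeR's quasi-likelihood fit, and for Ddit4 the neighbour difference in WT–mCherry cells did so too. The genotype log2 fold change of Ddit4l spanned 2.89, from -3.51 at 48 h to -0.62 at 144 h (adjusted p = 3.12e-19). That of Ddit4 spanned 2.64, from -1.70 at 48 h to 0.94 at 120 h (adjusted p = 2.18e-15). Deptor spanned 1.25, from 0.37 at 72 h to -0.88 at 144 h (adjusted p = 2.5e-08), and Sesn2 spanned 0.71, from -1.14 at 48 h to -0.42 at 120 h (adjusted p = 3.38e-05). The spans of the other 5 genes were narrower, at 0.52 for Tsc1 (adjusted p = 2.99e-06), 0.43 for Prkab2 (0.00489), 0.38 for Prkab1 (0.000172), 0.33 for Sesn1 (0.0199) and 0.25 for Tsc2 (0.0221). The neighbour difference of Ddit4 spanned 0.94, from 0.00 at 48 h to 0.94 at 120 h (adjusted p = 0.00996), in a test added after the values were seen. Cell type markers changed with time as well, and their part in these spans was not tested. From 48 h on, but not at 0 h, genotype and neighbours changed together, and the 2 cannot be told apart in the genotype spans.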

How the results depend on the processing

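Of 2340 values of members under alternatives, 2096 kept their direction and their side of the threshold. In 68 the sign differed while neither value was called, 50 of them with 1 replicate left out (size at most 0.128), 9 with WT–mCherry cells as control (the clone at 0 h, later cells of the same gastruloids, at most 0.182), 6 with TMM scaling, 2 with subtraction of emiRFP RNA and 1 with DESeq2. The other 176 changed their side of the threshold, and in 2 of these the sign differed as well. Both of these came with WT–mCherry cells of the same gastruloids as control: Prkab2 at 96 h went from -0.09 to 0.17 and Tsc1 at 144 h from 0.07 to -0.13. WT–mCherry control cells also gave 1 called member at 0 h, from separate cultures, and 5 at 96 h for genotype (2 and 3 with WT–emiRFP). The cause was not tested for any change given here.

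With the replicate block, genotype at 96 h gave 6 called members instead of 3, the neighbour comparison gave 2 at 72 h (0 without), 4 at 96 h (2), 2 at 120 h (1) and 4 at 144 h (2), and the clone comparison from 48 to 120 h gave 2, 2, 2 and 1 (1, 1, 0 and 0 without). The p53KO–emiRFP step from 96 to 120 h gave 5 instead of 3. In comparisons whose pairs were not all over 0.1, the block added 2 calls. These were Tsc2, lower in the neighbour comparison at 120 h (-0.12, adjusted p = 0.0456), and Tsc1, lower in the clone comparison at 72 h (-0.17, 0.0144). The block ended no call.

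Without the low-count filter the counts were 0 for the clone comparison at 48 h, 1 for neighbour at 72 h and 2 for neighbour at 120 h. DESeq2 gave 2 for neighbour at 72 h and 2 and 1 for clone at 72 and 96 h. Fits of only 2 groups gave 0 for clone at 48 h and 1 for neighbour at 72 h. Fits of all 23 groups gave 3 and 0 for clone at 0 and 48 h and 0 for neighbour at 96 h.

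Leaving out 1 replicate gave 1 to 2, 3 to 5, 4 to 5, 2 to 3, 5 to 6 and 6 to 7 members for genotype from 0 to 144 h. For the neighbour comparison it gave 0 to 1 at 72 h, 0 to 2 at 96 h, 0 to 1 at 120 h and 1 to 2 at 144 h. For clone it gave 0 to 3 at 0 h, 0 at 48 h, 1 at 72 h and 0 to 2 at 144 h. The last 3 p53KO–emiRFP steps gave 3 to 4, 1 to 3 and 3 to 4, and the genotype by time interaction gave 6 to 7 against 9. Calls of single members that these settings ended in the genotype and neighbour comparisons are given with the gene. Without the low-count filter Tsc2 was also lost from the clone comparison at 144 h (adjusted p = 0.0959), and in the fit of all 23 groups Sesn2 (0.0779) and Sesn3 (0.113). TMM scaling moved the median of all genes by at most 0.0378 on the log2 scale.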
